A study of Mus musculus with 48 samples.

Results

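The mitochondrial genome of the mouse carries 37 genes, and they were taken here as all genes whose symbol starts with mt- after the Ensembl identifiers of the count table were matched to mouse symbols on GRCm38. All 37 were found among the 48440 genes of the table, namely 13 protein genes, 2 rRNA genes and 22 tRNA genes. The rule itself uses symbols alone and no measured value. Of these genes, 28 are annotated on the plus strand and are called heavy-strand genes, and 9 are annotated on the minus strand and are called light-strand genes, after the strand from which each is transcribed.

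Total RNA from the amygdala of 48 male mice aged 4 months (strain C57BL/6 in the labels and C57BL/6N in the study's methods) was sequenced in read pairs of 125 bases, to ask how a lifelong lack of tryptophan hydroxylase 2 (Tph2), the enzyme that makes serotonin in the brain, and maternal separation act together. The 6 groups of 8 mice were Tph2+/+, Tph2+/- and Tph2-/- mice reared under the control condition (C) and mice of the same 3 genotypes that had been taken from their dams for 3 h per day between postnatal days 2 and 15 (MS). All mice descended from Tph2+/- parents, all had gone through behavioral testing before their tissue was taken, and the inactivation is constitutive and not limited to a brain region or cell type. Rearing was assigned to whole litters, and mice of different genotypes could be littermates. The RNA came from homogenate of both hemispheres, so that fewer cells of a type and less RNA per cell cannot be told apart.

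Mitochondrial DNA is transcribed on both strands into long precursors that run through many genes. The precursors are cut into rRNAs, mRNAs and tRNAs, and tRNAs often lie between the other genes and mark where the cuts are made. The heavy strand is the template for both rRNAs, most tRNAs and all mRNAs but one, while the light strand is the template for the mRNA of Nd6, a subunit of complex I of the respiratory chain, and for the remaining tRNAs. Between its few genes the light-strand precursor is antisense RNA, most of which is short-lived.

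Counts on genes ranged from 609489 to 6296568 per mouse with a median of 738490, and a median of 97.5% of the uniquely mapped pairs were counted on no gene. In 1008 pairs of an antisense gene and a protein gene whose exons overlap on opposite strands, the antisense gene had more counts per kb in 888, or 88.1%. The kit marks which strand an RNA came from, and the strand setting used in counting is not given in the sources used here. A count is therefore a count on the annotated gene, and whether it comes from RNA of that gene's own strand was not tested. If pairs were counted on the opposite strand, every contrast and ratio of light-strand with heavy-strand genes given here would swap in meaning. The 21 markers of brain cell types summed to between 161 and 624 counts per mouse. Neuronal markers had means from 2.10 to 14.9 counts, with 8.5 for Snap25 and 4.75 for Camk2a, and microglial markers from 9.08 to 135. Of the choroid plexus markers Kcnj13 had a mean of 82.5, Ttr 3.06 and Folr1 0.0417, and the endothelial gene Cldn5 had 0.0625. In 4 libraries the noncoding RNA Gm42418 had more than 500000 counts. They are replicate 1 of Tph2+/+ C, replicate 2 of Tph2+/+ MS, replicate 2 of Tph2+/- C and replicate 1 of Tph2-/- C.

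The mitochondrial genes together took a median of 1.01% of the counts on genes, between 0.367% and 1.21%, and 0.0255% of the uniquely mapped pairs. Counts were spread very unevenly among them. A mean of at least 10 counts was reached by 15 genes, while 20 had a mean under 1 and 13 of these had 0 counts in all 48 mice. The genes with 0 counts were the heavy-strand tRNA genes mt-Tf, mt-Tv, mt-Tl1, mt-Tm, mt-Td, mt-Tk, mt-Tg, mt-Tr, mt-Th, mt-Ts2 and mt-Tl2 and the protein genes mt-Atp8 and mt-Nd4l. A count of 0 allows up to 3 counts in a library, which are between 3.15 and 7.91 counts scaled to the library size after TMM (CPM), and this floor covers counting error only.

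The genes of the light strand had far more counts for their length. Summed over 1068 bases of light-strand genes the mean count per kb was 3128, against 335 over 14373 bases of heavy-strand genes. The contrast was widest among the tRNA genes, with 5592 counts per kb on the 8 of the light strand and 10.6 on the 14 of the heavy strand. The 12 protein genes of the heavy strand reached 301 counts per kb, the 2 rRNA genes 599 and mt-Nd6, the protein gene of the light strand, 521. Of the 12, 5 have an annotated nuclear copy over at least 90% of their length, described below, and had 0.231 per kb together. The 5 without a copy had 450 per kb. The rRNA value rests on mt-Rnr2, which had a median of 347 per kb over the mice and 12848 in the highest. These are values of the genes themselves, with no test between them.

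The tRNA genes that led each strand are shown with the anticodon in capitals, as their sequences show the length that a read pair would have to fall on. They were read from GENCODE release M21 on GRCm38, 5′ to 3′, and T stands for U. The first 3 are light-strand genes, which lie on the minus strand of the mitochondrial chromosome at chrM:6870-6938, chrM:15356-15422 and chrM:5260-5326, and mt-Tt is a heavy-strand gene on the plus strand at chrM:15289-15355.
mt-Ts1: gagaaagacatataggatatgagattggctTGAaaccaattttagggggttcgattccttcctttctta
mt-Tp: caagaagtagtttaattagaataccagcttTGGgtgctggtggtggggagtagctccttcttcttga
mt-Ty: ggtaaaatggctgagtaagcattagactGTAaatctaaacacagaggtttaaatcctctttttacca
mt-Tt: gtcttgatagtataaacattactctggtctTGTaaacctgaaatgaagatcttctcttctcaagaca
mt-Ts1 and mt-Tp are the tRNAs for serine (codons UCN) and proline, mt-Ty is that for tyrosine and mt-Tt that for threonine. With 69, 67, 67 and 67 bases they are all shorter than a read of 125 bases.

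**Figure D1:**
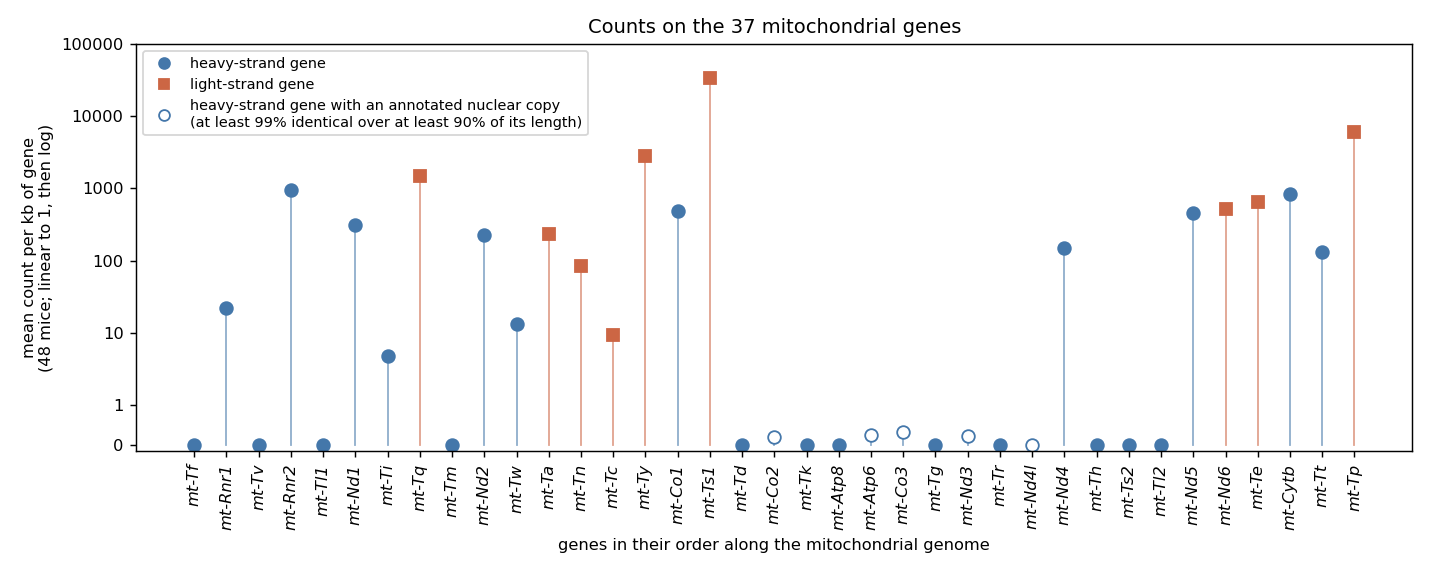
Mean count per kb of gene over 48 mice (vertical axis, linear to 1 and logarithmic above) for the 37 mitochondrial genes in their order along the genome, squares for the light strand and circles for the heavy strand. All 9 light-strand genes have counts, with mt-Ts1 highest at 33452 per kb, and 13 heavy-strand genes lie at 0. Open circles are the 5 genes with an annotated nuclear copy that is at least 99% identical over at least 90% of the gene.

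mt-Ts1 had the most counts of all 37 genes, with a mean of 2308 per mouse, and took between 52.4% and 78.9% of the counts on light-strand genes. It ends next to mt-Co1, with which it shares 3 bases on the opposite strand, and no other light-strand gene lies within 1543 bases on one side and 6613 bases on the other. mt-Tp followed with a mean of 403 counts, mt-Ty with 185, mt-Tq with 105 and mt-Te with 44.98. The 3 remaining light-strand tRNA genes lay in a cluster between mt-Tw and mt-Ty and were lower, with means of 16.1 for mt-Ta, 5.92 for mt-Tn and 0.625 for mt-Tc. Among heavy-strand tRNA genes mt-Tt had a mean of 8.92, mt-Tw, the tRNA for tryptophan, 0.875 and mt-Ti, the tRNA for isoleucine, 0.333.

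Room beside a tRNA gene went together with its count on the light strand. Of the 8 light-strand tRNA genes, 6 have at least 125 bases on one side that hold no other gene of the same strand, and their means ran from 16.1 to 2308 counts. The other 2, mt-Tn and mt-Tc, are hemmed in on both sides and had 5.92 and 0.625. On the heavy strand 3 tRNA genes have such a free side, with means of 0, 0.875 and 8.92, and the 11 without had means of at most 0.333. The heavy-strand genes with room were thus lower than the light-strand genes with room without overlap between these sets, and the part of neighbouring genes in the counts was not tested further.

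In the order of counts per kb the leading genes were well apart. mt-Ts1 lay above mt-Tp, mt-Tp above mt-Ty and mt-Ty above mt-Tq in 48 of 48 mice each. mt-Tq had a median of 1451 per kb, between 634 and 2099. It was above mt-Rnr2 in 45 mice, and mt-Rnr2 was above mt-Cytb in 5, since its place by the mean rests on few libraries. Next came mt-Cytb, the heavy-strand protein gene with the highest level, with 831 ± 162 per kb (SD, n = 48), and mt-Te with 652 ± 162. Per kb of the whole gene, mt-Nd6 had 521 ± 112, mt-Co1 482 ± 121 and mt-Nd5 460 ± 65.9, which did not differ beyond their spread. mt-Nd6 was above mt-Co1 in 27 mice and mt-Co1 above mt-Nd5 in 28. Part of mt-Co1 has a nuclear copy, described below. The pair of mt-Ta and mt-Nd2 was just as close, with the first above the second in 26 mice.

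Among the protein genes of the heavy strand, a group with nearly no counts lies side by side in the genome, from mt-Co2 to mt-Nd4l. A stretch of mouse chromosome 1, at chr1:24611535-24616197 on the minus strand of GRCm38, holds annotated pseudogenes that match this part of mitochondrial DNA. Of the 12 heavy-strand protein genes, 5 have a copy there over at least 90% of their length. They are mt-Co2 and mt-Co3, subunits of cytochrome c oxidase, mt-Atp6 of ATP synthase, and mt-Nd3 and mt-Nd4l of complex I. Their mean counts were 0.146, 0.25, 0.167, 0.0833 and 0. A copy over part of the length is annotated for mt-Nd4, over 63.6% of it, and for mt-Co1, over 31.3%, and these had means of 209 and 744. Divided by the length without a copy alone, these are 417 and 701 counts per kb, against 521 for mt-Nd6, which has no annotated copy. The remaining 5 of the 12 have no annotated copy. Their means ran from 0 for mt-Atp8, which overlaps mt-Atp6, to 951 for mt-Cytb. Copies were looked for among annotated transcripts, and reads that fall on 2 places alike are generally not counted on a gene.

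The copies differ from the mitochondrial genes by so few bases that short reads cannot tell them apart over most of their length. The alignments of mt-Co2, mt-Atp6 and mt-Co3 to Gm28661, Gm10925 and Gm28437 were identical over 681, 678 and 783 bases and that of mt-Nd4 to Gm28439 over 876 bases, and mt-Nd4l and Gm10222 had no mismatch either. In mt-Nd3 and Gm28438, 344 of 345 bases were the same, and in mt-Co1 and Gm29216, 482 of 483. The 2 places that differ are shown with the base in capitals, read from GENCODE release M21 in the direction of the gene.
mt-Nd3: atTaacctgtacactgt
Gm28438: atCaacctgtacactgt
mt-Co1: ggaAttgttttatccaac
Gm29216: ggaTttgttttatccaac
Counted from 1 at the 5′ end of the gene, these are T3C in mt-Nd3 and A1066T in mt-Co1, with the mitochondrial base first. Gm28438 had a mean of 68.4 counts, between 36 and 105, while mt-Nd3 had at most 1 in any mouse and the other 6 copies had means of at most 0.417. Values on mt-Nd3 and Gm28438 are therefore uncertain as to which of the pair the reads came from.

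A total of 16 mitochondrial genes passed the filter on low counts and were tested between groups, 7 on the light strand (mt-Tq, mt-Ta, mt-Ty, mt-Ts1, mt-Nd6, mt-Te and mt-Tp) and 9 on the heavy strand (mt-Rnr1, mt-Rnr2, mt-Nd1, mt-Nd2, mt-Co1, mt-Nd4, mt-Nd5, mt-Cytb and mt-Tt). The other 21 did not pass it. Counts of 6781 genes were fitted with edgeR, and a gene counted as differentially expressed (DEG) when its unadjusted p was below 0.01 and its log2 fold change (lg2FC) beyond 0.2 in either direction, the thresholds of the study. With this filter no mitochondrial gene had a Benjamini-Hochberg adjusted p below 0.05 in any of the 9 comparisons, while in a fit without it mt-Rnr2 did in 7 of 9 and no other member did. Among all 6781 genes of the filtered fit, 1 (0.0147%) did in each of the comparisons of Tph2-/- with Tph2+/+ under C and under MS, and none (0%) in the others. The share over all genes in the fit without the filter is not given here.

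The interaction of genotype and rearing was tested as GE1, the MS effect in Tph2+/- less that in Tph2+/+, and GE2, the MS effect in Tph2-/- less that in Tph2+/+. Both subtract the same Tph2+/+ mice. edgeR called 0 of 16 mitochondrial genes for GE1, where 2.96% of all genes were DEGs, and 0 of 16 for GE2, where 0.516% were. At an unadjusted p below 0.05 the count was 0 for both, against 7.95% and 3.64% of all genes, and DESeq2 called 0 for both as well. For mt-Nd6 the lg2FC was -0.17 ± 0.284 (standard error) for GE1 and 0.10 ± 0.284 for GE2, and the sign for GE2 turned when libraries were scaled to the sum of mitochondrial counts, with or without mt-Rnr2, and when the 4 libraries rich in Gm42418 were left out. For mt-Ts1 it was 0.23 ± 0.272 and 0.38 ± 0.272. Median lg2FC were 0.10 for light-strand and 0.02 for heavy-strand genes in GE1, and 0.10 and 0.07 in GE2. In GE2 15 of 16 lg2FC were positive, 7 of 7 on the light strand. With the sum of mitochondrial counts as library size 12 of 16 were negative, and without the 4 libraries 5 of 16 were. A library size made of the members' own counts takes out any shift they share, so its signs cannot tell whether there was one.

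Levels of mt-Nd6, the protein gene of the light strand, overlapped among all 6 groups. Tph2+/+ mice had 305 to 1083 CPM under C (median 378) and 236 to 554 CPM under MS (median 373). The highest value belonged to replicate 1 of Tph2+/+ C, which is one of the 4 libraries rich in Gm42418. Tph2+/- mice had 240.9 to 802 CPM under C (median 338) and 230.01 to 397 under MS (median 309). Tph2-/- mice had 285 to 435 CPM under C (median 348) and 217 to 438 under MS (median 297). Medians were lower under MS in each genotype, by little in Tph2+/+, and the ranges overlapped each time. The lg2FC for MS were -0.26 ± 0.20 in Tph2+/+ (edgeR, adjusted p = 0.843), -0.43 ± 0.201 in Tph2+/- (adjusted p = 0.9999) and -0.16 ± 0.201 in Tph2-/- (adjusted p = 0.910).

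mt-Ts1 varied more between mice than between groups. Tph2+/+ mice had 2178 to 5645 CPM under C (median 3123) and 1689 to 5641 under MS (median 2681). Tph2+/- mice had 1794 to 4523 CPM under C (median 3031) and 2125 to 3486 under MS (median 2914). Tph2-/- mice had 2373 to 3639 CPM under C (median 2963) and 1453 to 4735 under MS (median 3343). All groups overlapped, and over the 9 comparisons the lg2FC lay between -0.29 and 0.38 with a lowest adjusted p of 0.809 in edgeR. The other named light-strand genes had lg2FC between -0.25 and 0.07 for mt-Tp and between -0.09 and 0.12 for mt-Ty, and lowest adjusted p of 0.880 and 0.916.

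**Figure D2:**
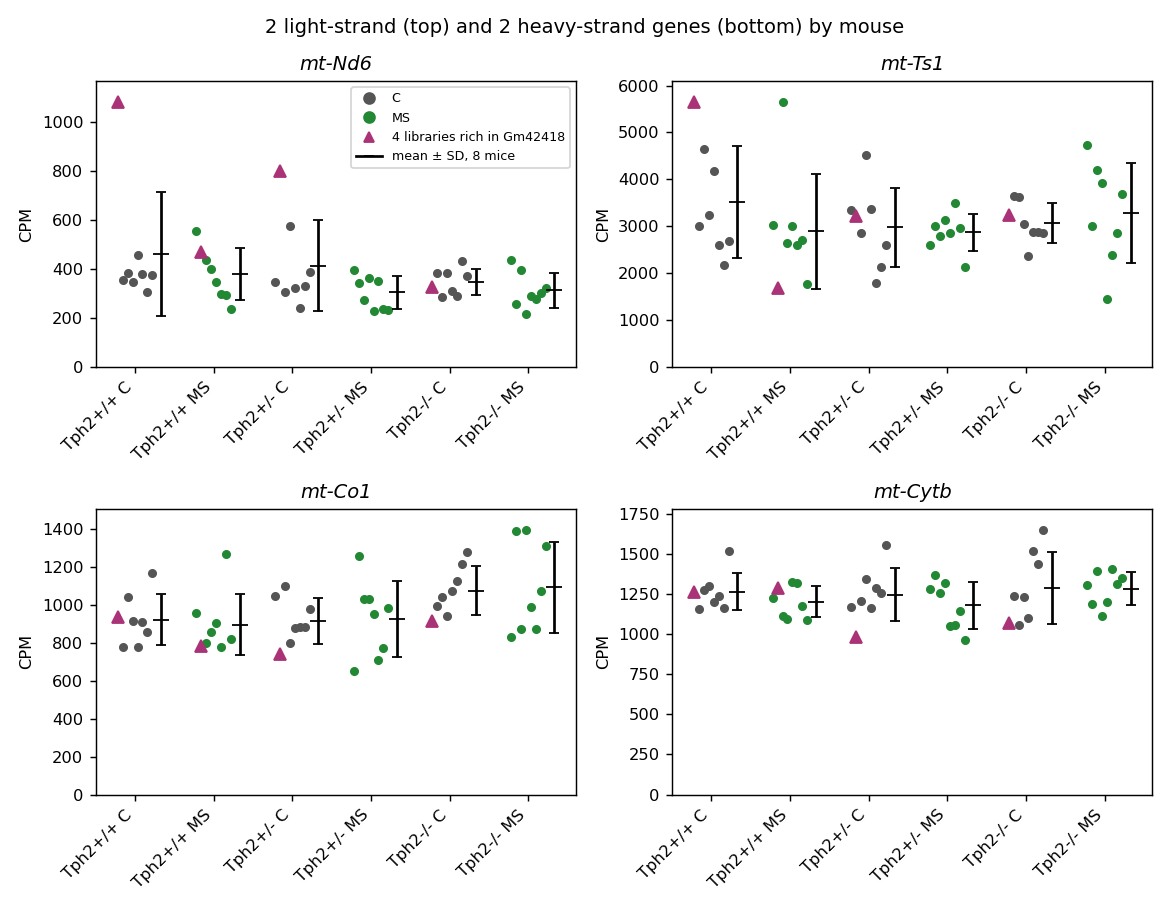
CPM of mt-Nd6 and mt-Ts1 (light strand, top) and of mt-Co1 and mt-Cytb (heavy strand, bottom) in each of 8 mice per group, with the mean ± SD beside the points and triangles for the 4 libraries rich in Gm42418. The groups overlap for all 4 genes, and mt-Nd6 is highest in 2 of those libraries, at 1083 and 802 CPM.

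Among the tested members mt-Cytb varied least between mice. mt-Cytb, the mitochondrial subunit of complex III, had group medians between 1200 and 1311 CPM and a coefficient of variation of 11.7% over 48 mice, and its lg2FC stayed between -0.08 and 0.09 with standard errors of at most 0.123. For mt-Co1, the catalytic subunit of cytochrome c oxidase, Tph2+/+ mice had a median of 912 CPM under C (776 to 1168) and 840 under MS (779 to 1271). For Tph2+/- mice the median was 882 under C (741 to 1102) and 969 under MS (650 to 1256). For Tph2-/- mice it was 1059 under C (916 to 1279) and 1031 under MS (832 to 1396). Both Tph2-/- groups had higher medians than the other 4 while their ranges overlapped with them. The lg2FC of mt-Co1 for Tph2-/- against Tph2+/+ was 0.22 ± 0.118 under C (edgeR, adjusted p = 0.999) and 0.28 ± 0.118 under MS (unadjusted p = 0.0190, adjusted p = 0.571), so that it did not pass either threshold.

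mt-Rnr2, the gene of the large mitochondrial rRNA, was the one member called for MS. It was called lower in Tph2+/+ and in Tph2+/- mice, which made 1 of 16 mitochondrial genes in each, against 2.67% and 0.678% of all genes. Tph2+/+ mice had 337 to 47425 CPM under C (median 880) and 147 to 3161 under MS (median 685). Tph2+/- mice had 121 to 45792 CPM under C (median 916) and 198 to 1180 under MS (median 582). The ranges overlapped widely, and a single C library in each genotype was far above the rest. The lg2FC was -2.83 ± 0.889 in Tph2+/+ (edgeR, unadjusted p = 0.00244, adjusted p = 0.229) and -3.37 ± 0.912 in Tph2+/- (unadjusted p = 0.000515, adjusted p = 0.661).

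In Tph2-/- mice mt-Rnr2 lay between 402 and 7157 CPM under C (median 972) and between 169 and 1085 under MS (median 581). Here too the highest value belonged to a library rich in Gm42418. No mitochondrial gene was called for MS in Tph2-/- (0 of 16, none with an unadjusted p below 0.05 and 0 in DESeq2), where 0.811% of all genes were, and mt-Rnr2 had an lg2FC of -1.37 ± 0.853 (adjusted p = 0.881). The difference of the MS effect on mt-Rnr2 between genotypes was -0.54 ± 1.18 for GE1 and 1.46 ± 1.19 for GE2, and neither passed. Without the filter on low counts mt-Rnr2 was called in both, with -0.48 ± 0.142 for GE1 (edgeR, adjusted p = 0.113) and 1.40 ± 0.143 for GE2 (adjusted p = 1.12e-18), so that these calls depend on the filter.

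The values of mt-Rnr2 moved with the 4 libraries rich in Gm42418. They had 17997, 20326, 4977 and 2468 counts on it, against a median of 549 over all mice, and they belong to 3 C groups and 1 MS group. Without them the lg2FC for MS was -0.54 in Tph2+/+ (edgeR, unadjusted p = 0.159) and -0.37 in Tph2+/- (unadjusted p = 0.321), and no mitochondrial gene was called in either. DESeq2, run on all libraries with its default handling of outlying counts, called none in either comparison. How far that handling changed the values of the outlying libraries was not tested. In the libraries of Tph2+/+ C replicate 1 and Tph2+/- C replicate 2 the 2 rRNA genes made up 78.0% and 82.8% of the counts on mitochondrial genes, against a median of 8.52% over all mice.

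**Figure D3:**
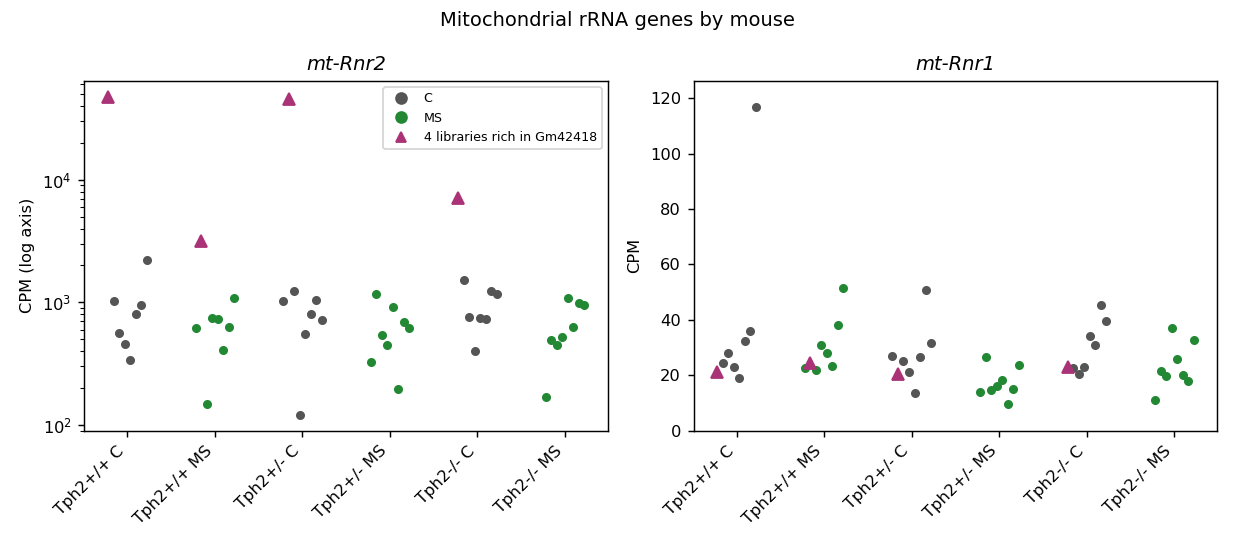
CPM of mt-Rnr2 (left, log axis) and mt-Rnr1 (right, linear axis) in each of 8 mice per group, with triangles for the 4 libraries rich in Gm42418. These 4 have the highest mt-Rnr2 of their groups, between 3161 and 47425 CPM, and are not the highest for mt-Rnr1, where 1 Tph2+/+ C mouse reached 117.

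mt-Rnr1, the gene of the small mitochondrial rRNA, had few counts, with a mean of 21.2 per mouse and 22.2 per kb. Under MS, Tph2+/+ mice had 22.03 to 51.4 CPM (median 26.2) and Tph2+/- mice 9.48 to 26.5 CPM (median 15.6). The groups overlapped, with 6 of 8 Tph2+/- mice below the lowest Tph2+/+ mouse. The lg2FC of Tph2+/- against Tph2+/+ under MS was -0.80 ± 0.297 (edgeR, unadjusted p = 0.00923, adjusted p = 0.761), which made it the 1 of 16 mitochondrial genes called, against 1.24% of all genes, and the 1 with an unadjusted p below 0.05, against 5.59%. The call was lost with a minimum mean of 10 counts, at an unadjusted p of 0.0100066, and when libraries were scaled to the sum of mitochondrial counts, at 0.0296. Under C the medians were 26.2 CPM in Tph2+/+ (18.9 to 117), 25.9 in Tph2+/- (13.6 to 50.7) and 27.0 in Tph2-/- (20.5 to 45.3), and the Tph2-/- mice with MS had a median of 20.8 (10.9 to 36.99). These overlapped as well.

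None of the 16 genes was called in the other genotype comparisons, with 0 of 16 for Tph2+/- against Tph2+/+ under C (2.14% of all genes), for Tph2-/- against Tph2+/+ under C (0.619%) and for Tph2-/- against Tph2+/+ under MS (2.06%). At an unadjusted p below 0.05 there were 0, 1 and 1 in edgeR, against 6.9%, 3.88% and 7.4% of all genes, and DESeq2 called 0 in all 3. The 1 was mt-Rnr2 under C and mt-Co1 under MS.

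The difference between light-strand and heavy-strand genes was not tested, and their lg2FC overlapped in all 9 comparisons. For MS in Tph2+/+ all 16 lg2FC were negative, with a median of -0.21 on the light and -0.23 on the heavy strand, against -0.00403 over all 6781 genes. For MS in Tph2+/- 10 of 16 were negative and the medians were -0.05 and -0.08. For MS in Tph2-/- 11 of 16 were negative and the medians were -0.06 and -0.02. For Tph2-/- against Tph2+/+ under C 0 of 7 light-strand and 4 of 9 heavy-strand genes were positive, with medians of -0.04 and -0.12, and under MS the medians were 0.01 and 0.11. For Tph2+/- against Tph2+/+ the medians were -0.12 and -0.10 under C and -0.01 and -0.08 under MS. These are counts over members that share libraries. An unadjusted p below 0.05 was reached by 2, 3 and 0 of the 16 genes, against 7.68%, 3.95% and 5.13% of all genes. Scaled to the sum of mitochondrial counts instead, 4 of 16 were negative for MS in Tph2+/+, and 9 of 16 when mt-Rnr2 was left out of that sum. Both sums take out by construction a shift that the members share, so they cannot test the common direction. With TMM scaling all 16 remained negative without the 4 libraries (median -0.14) and 13 did without replicate 8 of Tph2+/+ C.

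**Figure D4:**
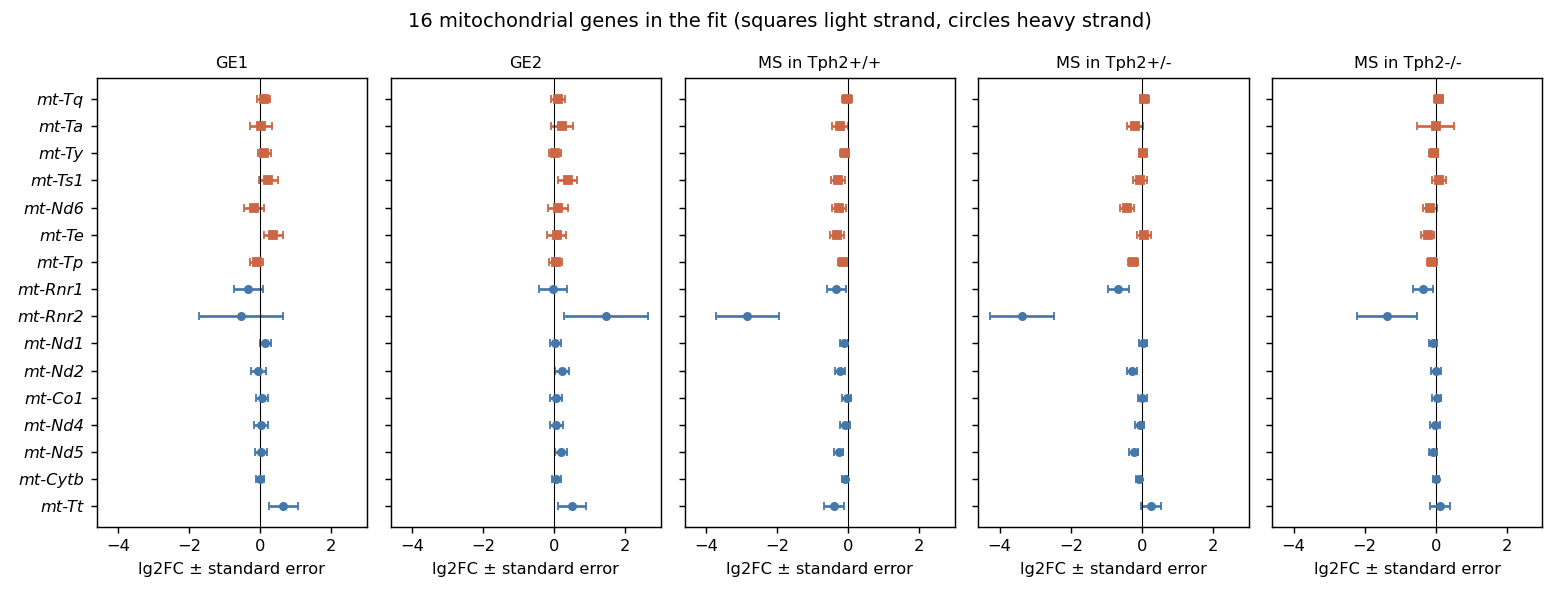
lg2FC ± standard error (horizontal axis) of the 16 mitochondrial genes in the fit for GE1, GE2 and MS in each genotype, 8 mice per group, squares for the light strand and circles for the heavy strand. The ranges of both strands overlap in each panel, and mt-Rnr2 stands out with the widest errors. With TMM scaling 15 points are above 0 for GE2 and all 16 below 0 for MS in Tph2+/+. When scaled to the sum of mitochondrial counts, which takes out any shift the members share, 4 are above and 4 below.

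The ratio of light-strand to heavy-strand counts within a mouse had a median of 0.814, between 0.102 and 1.84. Tph2+/+ mice had a mean of 0.794 ± 0.349 (SD, n = 8) under C and 0.889 ± 0.417 under MS. The means of Tph2+/- mice were 0.758 ± 0.352 under C and 0.899 ± 0.140 under MS, and those of Tph2-/- mice 0.751 ± 0.179 and 0.900 ± 0.297. The mean was higher under MS in each genotype by less than the SD of the C group. In Tph2+/+ MS it rests in part on replicate 3 with 1.84, while the others lay between 0.424 and 0.905. The Tph2+/+ medians were 0.854 under MS and 0.794 under C. Without the 2 rRNA genes the group means lay between 0.980 and 1.11, with Tph2+/+ MS below Tph2+/+ C, and the ratio of mt-Nd6 to the heavy-strand protein genes had group medians between 0.0678 and 0.0931. The lowest ratios, 0.102 and 0.154, belonged to 2 of the 4 libraries rich in Gm42418, where mt-Rnr2 is a heavy-strand gene with many counts.

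Members varied together across mice in part. Over 48 mice, Spearman's rho of log2 CPM had a median of 0.32 for pairs of light-strand genes, 0.23 for pairs of heavy-strand genes and 0.13 for pairs across strands. The highest values were 0.75 for mt-Nd1 with mt-Co1, 0.73 for mt-Nd5 with mt-Te and 0.73 for mt-Nd5 with mt-Nd6. mt-Nd5 on the heavy strand is followed on the genome by mt-Nd6 and mt-Te on the light strand, and mt-Nd5 and mt-Nd6 share 14 bases on opposite strands. Outside mitochondrial DNA the genes most like mt-Nd6 among 6765 were Gm10558, an antisense gene on the minus strand of chromosome 1, with a rho of 0.72, Gm17259, an antisense gene on chromosome 13, with 0.55, and Cdr1 on the X chromosome with 0.54. All points share library depth and scaling, and the values are a description.

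The replicates within each group are numbered in the order of an animal number in the sample labels, whose meaning the labels do not give. The 24 C mice fell into 17 with numbers below those of all MS mice and 7 with numbers above them, so that rearing and the range of numbers cannot be told apart. The relation to the number was looked at after the data had been seen, as a slope within the 6 groups. mt-Rnr1 had the smallest p of all 6781 genes, with an lg2FC of 0.44 ± 0.0666 per 100 animal numbers (edgeR, adjusted p = 0.000168), and it was the only mitochondrial gene among the 9 genes (0.133%) with an adjusted p below 0.05.

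Counts on mt-Rnr1 were highest in the 7 controls with the highest numbers, which had 24 to 83 counts (median 35). The other 17 C mice had 8 to 25 counts (median 17), and the 24 MS mice had 7 to 43 (median 18). The 7 controls lay almost wholly above the other controls and overlapped with the MS mice. Among C mice alone the slope was 0.43 ± 0.0748 (adjusted p = 0.00263, 1.69% of genes called), and mt-Cytb also rose, by 0.11 per 100 numbers (adjusted p = 0.0234), while its slope was -0.09 among MS mice alone and -0.07 without the 7 controls. Among MS mice alone the slope of mt-Rnr1 was of like size at 0.51 ± 0.175 but did not pass (edgeR, unadjusted p = 0.00714, adjusted p = 0.768, 0 genes called in all). Without the 7 controls it was 0.48 ± 0.156 (adjusted p = 0.671), and without replicate 8 of Tph2+/+ C, the mouse with 83 counts, it was 0.32 ± 0.0617 (adjusted p = 0.0133).

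**Figure D5:**
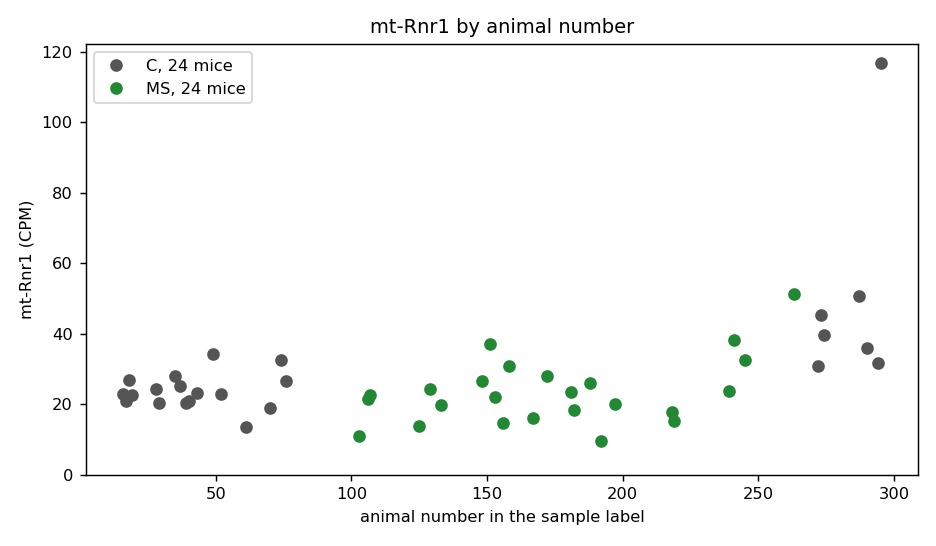
mt-Rnr1 in CPM (vertical axis) against the animal number of the label (horizontal axis) for 24 C and 24 MS mice. The 7 C mice with the highest numbers lie between 31.0 and 117 CPM, the other 17 C mice between 13.6 and 34.2.

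At an unadjusted p below 0.01 the slope was not limited to mt-Rnr1. It passed for 7 of 16 mitochondrial genes, against 4.41% of all genes, with mt-Rnr1, mt-Ta and mt-Cytb higher and mt-Nd2, mt-Ty, mt-Ts1 and mt-Nd5 lower in mice with higher numbers. For mt-Ta the slope was 0.19, but 0.12 without replicate 8 of Tph2+/+ C (edgeR, unadjusted p = 0.0913). In MS mice alone it was 0.01, and -0.03 without the 7 controls. With the sum of mitochondrial counts as library size 2 members were higher and 0 lower (5.15% of all genes passed). With that sum less mt-Rnr2 6 were higher and 1 lower (7.57%), and without replicate 8 of Tph2+/+ C 1 was higher and 4 lower (3.63%). In C mice alone the slope passed for 6 of 16 genes (6.16% of all genes) and in MS mice alone for 3 (1.16%). The light-strand gene mt-Nd6 had a slope of -0.16 ± 0.0646 over all mice (edgeR, unadjusted p = 0.0173). It was -0.08 ± 0.0519 without the 4 libraries rich in Gm42418 (unadjusted p = 0.143), and 0.02 ± 0.0821 with the sum of mitochondrial counts as library size (unadjusted p = 0.806). In C mice alone it was -0.10 ± 0.0748 (unadjusted p = 0.176), and in MS mice alone -0.48 ± 0.116 (unadjusted p = 0.000258, adjusted p = 0.442). Over all mice mt-Rnr1 alone passed after adjustment, and which of the other members passed unadjusted changed with the library size. With the number as a covariate mt-Rnr2 had an lg2FC of -1.90 for MS in Tph2+/+ (edgeR, unadjusted p = 0.0299), so that it was no longer called there.

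Most nuclear genes whose products work with the mitochondrial genes did not pass the filter either. Of 95 nuclear genes of the respiratory chain and ATP synthase, 17 were tested, with a median of the mean counts of 1.21 over the list. Atp5d, a subunit of ATP synthase, was the only one called, lower in GE1 (lg2FC -0.96 ± 0.300; 2.96% of all genes called), in Tph2+/- against Tph2+/+ under MS (-0.79 ± 0.210; 1.24%) and in Tph2-/- against Tph2+/+ under MS (-0.56 ± 0.205; 2.06%). Of 33 nuclear genes for the upkeep of mitochondrial DNA and for mitochondrial RNA synthesis and processing in the table, 11 were tested. Mgme1, a nuclease of mitochondrial DNA, was called lower in GE1 (-2.49 ± 0.678) and higher for MS in Tph2+/+ (1.63 ± 0.522) and in Tph2+/- against Tph2+/+ under C (1.92 ± 0.510), with a mean of 9.15 counts. Polg, the mitochondrial DNA polymerase, was called higher for MS in Tph2-/- (0.77 ± 0.280), and Fastk, of a family of mitochondrial RNA-binding proteins, higher in Tph2-/- against Tph2+/+ under MS (1.17 ± 0.381). Of these 5 calls, 4 were of Mgme1 and Polg, which act on mitochondrial DNA. They are 1 of 11 genes in each of the 5 comparisons, against 2.96%, 2.67%, 2.14%, 0.811% and 2.06% of all genes in the order given. All Mgme1 calls use the same Tph2+/+ C mice and all Atp5d calls the same Tph2+/+ MS mice, so that the calls of a gene are not independent. None of the genes of either list had an adjusted p below 0.05 in edgeR.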

How the data were processed

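RNA from the amygdala of 48 mice (8 per group) was measured. The read pairs were mapped by the authors to GRCm38.p5, and the counts they deposited are per Ensembl gene and not normalized. The labels name STAR, HTSeq and DESeq2 without versions, and the annotation and strand setting are not given in the sources used here. Rows that name no gene were left out. Genes were placed with GENCODE M21 (GRCm38, 48058 identifiers matched), and nuclear copies were searched among its transcripts with BLAST 2.17.0 (identity of at least 99%, at least 50 bases).

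Genes that passed filterByExpr, without Lars2 as in the study, were scaled with TMM. A model with a coefficient for each group was fitted in edgeR 4.0.16 (R 4.3.3), and the contrasts between groups were assessed by its quasi-likelihood test. A Wald test without a prior in DESeq2 1.42.0 was an alternative, besides other library sizes, filters, covariates and sets of libraries. The study used an earlier version of DESeq2. The steps were tested on simulated data. Tests across groups measure the spread between mice and treat the mice as independent. Rearing was assigned by litter in the study, and the sample labels do not give the litter, so that a spread between litters could not be modeled. No pairing of the mice by replicate number was seen. The members, lists and named genes were chosen with earlier results of these data known. Named with values were mt-Nd6, both rRNA genes, mt-Co1, mt-Cytb, the 3 leading tRNA genes of each strand and every member called.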

Additional observations from a re-analysis of the deposited data

Results flagged for a closer look

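Of 108 combinations of a group of 8 mice and a measure (CPM of a tested mitochondrial gene, share of mitochondrial counts, or ratio of light-strand to heavy-strand counts), 16 held 1 mouse far from the other 7 by Dixon's criterion, which chance alone meets in about 1 in 20. The 4 libraries rich in Gm42418 account for 9 of them. mt-Rnr2 was at 47425 CPM in replicate 1 of Tph2+/+ C, 45792 in replicate 2 of Tph2+/- C, 7157 in replicate 1 of Tph2-/- C and 3161 in replicate 2 of Tph2+/+ MS. The share of mitochondrial genes in the counts without Gm42418 and Lars2 was 5.51%, 5.46% and 1.77% in the first 3 of these libraries. The light-strand genes mt-Nd6, at 1083 CPM in replicate 1 of Tph2+/+ C, and mt-Te, at 93.5 CPM in replicate 2 of Tph2+/+ MS, were the highest of their groups in 2 of these libraries as well.

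Replicate 8 of Tph2+/+ C was apart for mt-Rnr1 with 117 CPM, where the others lay between 18.9 and 36.0, for mt-Ta with 46.5 CPM (others at most 23.7) and for mt-Cytb with 1517 CPM (others at most 1300.25). Replicate 3 of Tph2+/+ MS was apart for mt-Ts1 with 5641 CPM and with it for the ratio of light-strand to heavy-strand counts with 1.84. mt-Co1 was at 1271 CPM in replicate 7 of Tph2+/+ MS (others at most 956), and mt-Nd1 was lowest at 283 CPM in replicate 6 of Tph2+/- C (others at least 355).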

How the results depend on the processing

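The number of mitochondrial genes called was 0, 0, 1, 1, 0, 0, 0, 1 and 0 in GE1, GE2, MS in Tph2+/+, Tph2+/- and Tph2-/-, Tph2+/- and Tph2-/- against Tph2+/+ under C, and the same under MS. Without a filter on low counts they were 1, 2, 3, 4, 1, 2, 2, 3 and 2, out of 24 members among 32234 genes. The share of all genes called in that fit is not given here, so that these counts cannot be set against it. Standard errors there were a median of 0.807 and at the lowest 0.119 times those with the filter. mt-Rnr2 was among the genes called without the filter in all comparisons but Tph2+/- against Tph2+/+ under C, and its adjusted p in edgeR was below 0.05 in 7 of 9, from 0.000651 down to 5.14e-189. For MS in Tph2+/+ its standard error was 0.106 without and 0.889 with the filter, while the mice of Tph2+/+ C ranged from 337 to 47425 CPM. For MS in Tph2+/+ the count was 0 with DESeq2, with a replicate block, with either sum of mitochondrial counts as library size, with the animal number as a covariate and without the 4 libraries rich in Gm42418, and 3 when the 7 controls numbered above all MS mice were left out (mt-Rnr2, mt-Nd2 and mt-Nd5). For MS in Tph2+/- it was 0 with DESeq2 and without the 4 libraries, and 2 (mt-Rnr1 and mt-Rnr2) in a fit of only the groups compared, with the animal number as a covariate and without replicate 8 of Tph2+/+ C. It was 1 (mt-Rnr2) for MS in Tph2-/- in a fit of only the groups compared, and 0 for Tph2+/- against Tph2+/+ under MS with a mean of at least 10 counts or with either sum of mitochondrial counts. For the slope on the animal number it was 1, and 0 in MS mice only and without the 7 controls, 2 in C mice only, with mitochondrial counts without mt-Rnr2 as library size and with DESeq2, and 6 without a filter. The median ratio of light-strand to heavy-strand counts was 0.0786 over protein genes only. The lg2FC of mt-Nd6 in GE2 turned to -0.25 and -0.12 with the sum of mitochondrial counts with and without mt-Rnr2 and to -0.15 without the 4 libraries. Apart from cases where the libraries or genes left out show it, the cause was not tested. The alternatives with the animal number, without replicate 8 and with mitochondrial counts without mt-Rnr2 were chosen after seeing the data.

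Replicate numbers did not pair the mice, since deviations of same-numbered mice had a median correlation of 0.0045 over 120 pairs, 21 of them over 0.1. With the replicate block, mt-Rnr2 had an lg2FC of -1.48 (edgeR, unadjusted p = 0.0571) for MS in Tph2+/+ and -1.63 (unadjusted p = 0.0371) in Tph2+/-, where mt-Rnr1 was the 1 gene called in its place, and the counts in the other comparisons did not move.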
